A study of Mus musculus with 6 samples.

Results

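Activator protein 1 (AP-1) and the early growth response (EGR) factors were examined in mouse bone marrow mesenchymal stromal cell (BMSC) cultures with and without retinoic acid (RA). The 10 genes were taken by name: the Fos family (Fos, Fosb, Fosl1 and Fosl2), the Jun family (Jun, Junb and Jund), the related factor Atf3, and Egr1 and Egr2. They were found as 10 of the 25722 genes listed, and took between 0.0444% (RA-treated 2) and 0.0850% (control 2) of the counts of a library. Of these, 9 passed the filter on low counts and were tested, and Fosb did not.

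The cells were adherent bone marrow cultures of wild-type C57BL/6 mice, which the study labels BM-MSCs, grown in 5% oxygen with 20% fetal bovine serum and 10 µM ROCK inhibitor. The 3 control libraries came from cultures given the solvent DMSO and the 3 RA-treated libraries from cultures given all-trans RA (ATRA), for which the labels state 1 µM and 48 h. The methods of the study give a lower concentration and a shorter time for the RNA sequencing, so the exposure is uncertain. The labels speak of 2 biological replicates while each group holds 3 libraries, so p-values below measure the spread between these libraries, part of which may be technical. Serum and the ROCK inhibitor were shared by both groups.

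AP-1 is a dimer of basic leucine zipper (bZIP) proteins, usually a Fos family protein with a Jun family protein, while Jun proteins can also pair among themselves or with ATF factors. Fos, Fosb, Egr1 and Egr2 are classical immediate early genes: serum, growth factors and stress switch them on within minutes through MAP kinases, and their RNA is then rapidly lost. Liganded retinoic acid receptors are well known to oppose AP-1 activity at the protein level, without needing a change in the RNA of the AP-1 subunits.

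The libraries held between 14737636 and 18511905 counts, so that 3 counts, the floor used here, stood for 0.160 to 0.210 CPM, the usual depth-scaled unit for counts. The main axis of variation (57.2% of the variance, from principal components on 1000 variable genes) did not part the treatments. On one side lay RA-treated 1 and 2 with control 2, called library set 1, and on the other RA-treated 3 with controls 1 and 3, called library set 2. Fos and Fosl1 are themselves among those 1000 genes, and no label names a batch that matches the sets. RA-treated 2 also stood apart: 20 genes were over 20 times higher there than in any other library (beyond an added 3 CPM), against 0 or 1 such genes in each of the others. All 15 macrophage markers were expressed, summing to 22034 to 24653 CPM in the controls and 21304 to 23497 CPM after RA. The mesenchymal markers summed to 2360 to 4542 CPM and 1735 to 3536 CPM, with 3 of 15 (Thy1, Nt5e and Lum) below the filter, Thy1 at 0 in RA-treated 3 and Lum at 0 in control 1. The most abundant markers were thus those of macrophages and not of the labelled BM-MSCs, with Adgre1 (F4/80) alone at 4463 to 6379 CPM. In such bulk RNA, fewer cells of a type and less RNA per cell cannot be told apart. As a check of the treatment, Cyp26b1, which breaks down RA, rose from 5.20 ± 0.670 to 106.8 ± 18.4 CPM (SD, n = 3 each, edgeR adjusted p = 0.00207).

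Upstream sequence from RefSeq (build GRCm38.p6) was found for 8 of the 10 genes, and the last 120 bases before the start of 4 of them are shown for the short elements through which such genes take up their signals. In capitals are TGACGT (the core of the cyclic AMP response element, ACGTCA on the other strand), TGACNTCA (a Jun-type AP-1 element) and, in Egr2, also the CArG box bound by serum response factor. The windows lie at chr12:85473770-85473889 (plus strand, Fos), chr4:95052223-95052342 (minus strand, Jun), chr1:191183334-191183453 (minus strand, Atf3) and chr10:67537749-67537868 (plus strand, Egr2).
Fos: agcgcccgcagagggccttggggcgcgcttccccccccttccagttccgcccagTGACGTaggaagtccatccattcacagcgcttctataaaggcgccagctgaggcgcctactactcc
Jun: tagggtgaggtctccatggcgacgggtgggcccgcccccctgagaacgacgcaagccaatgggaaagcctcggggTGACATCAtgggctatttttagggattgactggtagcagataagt
Atf3: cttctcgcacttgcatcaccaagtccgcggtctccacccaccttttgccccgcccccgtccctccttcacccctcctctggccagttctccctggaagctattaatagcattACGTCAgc
Egr2: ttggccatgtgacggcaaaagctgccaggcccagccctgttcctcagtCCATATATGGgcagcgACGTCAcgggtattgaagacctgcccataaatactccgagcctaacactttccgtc

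Searched on both strands over 250 bases before and 50 after each start, TGACGT was found in 3 of the 8 genes (Fos, Atf3 and Egr2). It was found in 7.51% of 32851 windows of that length from genes outside chromosome 18. A gene can have several windows, as Egr2 does, so counts of genes and shares of windows are not alike. Among the 8 genes, the Jun element TGACNTCA was found in Jun alone and in 8.83% of windows, and the CArG box in Egr2 alone and in 1.63%. Egr1 was not searched. The EGR element GCGNGGGCG was found in Fosb and Fosl2 and in 5.55% of windows. Neither TGANTCA, the AP-1 consensus (7.81% of windows), nor AGGTCA, a retinoid receptor half-site (16.3%), was found in the 8 genes. TGACNTCA and TGACGT overlap where N is G. These matches describe letters only, and binding was not measured.

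Compared per length, as RPKM (CPM divided by the exon length in kilobases), the Jun family and Atf3 were the abundant members and Fosb the scarcest. Jund, the Jun protein that is usually present without stimulation, stood at 92.5 ± 37.8 RPKM (SD over the 6 libraries) and Junb at 78.1 ± 24.3 RPKM. Their order was not settled, because Jund lay above Junb in 3 of 6 libraries, all of set 2. Atf3, a stress-induced bZIP factor, followed at 52.5 ± 11.5 RPKM and Jun at 37.0 ± 4.41 RPKM, and each lay above the next member in 6 of 6 libraries. In RA-treated 2, however, Jund (32.8 RPKM) lay below Atf3 (38.3 RPKM), on a Jund value that is uncertain, as given below.

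Fos reached 13.2 ± 8.96 RPKM and Fosl2, a Fos relative with longer-lived expression, 8.50 ± 3.18 RPKM, with Fos above Fosl2 in 3 of 6 libraries. Fosl1 (2.41 ± 1.49 RPKM) lay above Egr1 (1.19 ± 0.188 RPKM) in 4 of 6. Egr2 stood at 0.378 ± 0.107 RPKM and Fosb at 0.0382 ± 0.0188 RPKM, below all others in 6 of 6. Fos family RNA summed to 16.5% to 21.2% of Jun family RNA in the 3 libraries of set 1, and to 5.20% to 6.75% in the 3 of set 2. The annotated Jund exon length, 1668 bases, is shorter than in RefSeq, which bears on its place.

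**Figure D1:**
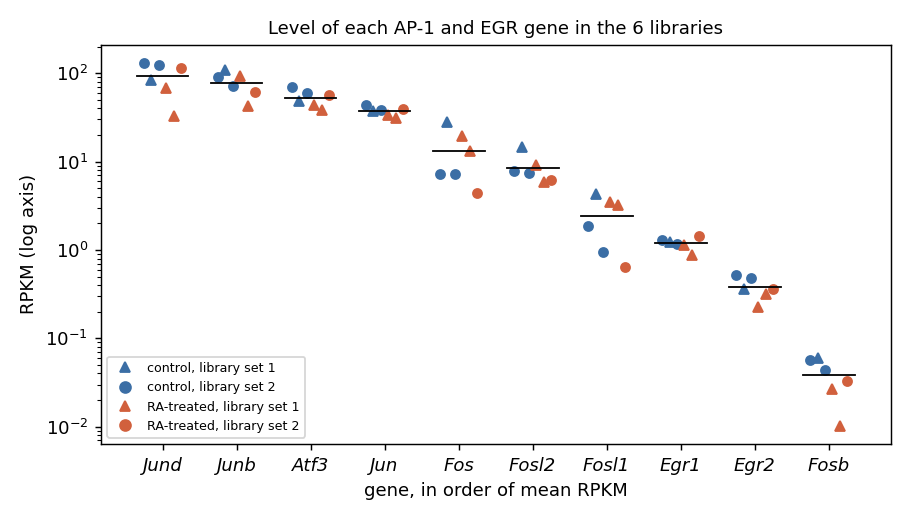
RPKM of each gene (log axis) in the 6 libraries, ordered by mean (black line), with colour for treatment and symbol for library set. The Jun family and Atf3 lie above 30 RPKM in every library, and the triangles of set 1 lie above the circles of set 2 for Fos and Fosl1, whichever the treatment.

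To ask whether RA changed these genes, the 3 RA-treated libraries were tested against the 3 controls with edgeR's quasi-likelihood test over 13842 genes, calling genes with an adjusted p under 0.05 and at least a 1.5-fold change. None of the 9 tested genes was called, where 0.0433% of all tested genes were, and none had an unadjusted p under 0.05 (5.25% of all). DESeq2 also called 0 of the 10 (0.483% of all genes), and none of the 10 had an unadjusted p under 0.05 there (3.24% of all genes). The group means were lower after RA for 8 of the 9, where 52.7% of all tested genes were lower, and the median log2 fold change was -0.35 against -0.018 over all genes. In all 9 the libraries of the 2 groups overlapped, whereas 12.6% of tested genes had groups that did not.

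Fos, the founding member of its family, had 16.9, 65.6 and 17.1 CPM in controls 1 to 3, and 45.5, 31.3 and 10.4 CPM in RA-treated 1 to 3. The high values were control 2 and RA-treated 1 and 2, and the groups overlapped. The log2 fold change was -0.19 (SE 0.70, 95% interval -1.86 to 1.48, edgeR adjusted p = 0.950), and it turned to 0.79 without control 2 and to 0.20 without RA-treated 3.

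Fosl1, a Fos relative of growing and migrating cells, was likewise higher in every library of set 1 than in any of set 2. It had 3.78, 8.83 and 1.93 CPM in the controls and 7.06, 6.53 and 1.30 CPM after RA. Its log2 fold change of 0.03 (SE 0.73) took either sign when libraries were left out, from -0.35 to 0.82.

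Fosl2 had 75.6, 140.8 and 71.8 CPM in the controls, and 88.2, 57.5 and 59.9 CPM after RA. Control 2 was the high library, and without it the log2 fold change went from -0.49 (SE 0.31, edgeR adjusted p = 0.795) to -0.092.

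Fosb was at or near the floor, with 5, 7 and 4 counts in the controls and 3, 1 and 3 counts after RA. The counts of the groups did not overlap, but no fold is given since RA-treated counts were not above the floor.

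Jun itself, a direct MAP kinase target and the partner of Fos, was the steadiest member. It had 137.6, 118.5 and 123.4 CPM in the controls and 105.9, 98.4 and 124.8 CPM after RA, a log2 fold change of -0.21 (SE 0.13, 95% interval -0.52 to 0.11) that ranged from -0.31 without RA-treated 3 to -0.13 without RA-treated 2. Its range over the 6 libraries, 0.48 on the log2 scale, was smaller than the median range of 0.73 over all tested genes.

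Junb, a Jun protein that often restrains Jun, had 208.9, 251.9 and 164.6 CPM in the controls and 213.0, 97.1 and 142.7 CPM after RA. RA-treated 2 was the lowest library. The log2 fold change of -0.47 (SE 0.30) was -0.23 without RA-treated 2 and -0.78 without RA-treated 1. The annotated exons of Junb overlap those of Prdx2, so reads at that end may have gone to either gene.

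Jund had 218.8, 140.5 and 204.0 CPM in the controls and 114.1, 54.8 and 193.5 CPM after RA. It was lower in every library of set 1 than in every library of set 2, opposite to Fos. The log2 fold change was -0.64 (SE 0.43, edgeR adjusted p = 0.795) and ranged, when single libraries were left out, from -1.15 without RA-treated 3 to -0.29 without RA-treated 2. In RA-treated 2 the antisense gene Gm11175, which lies within Jund, had 340 counts, against 0 to 5 in the other libraries, while Jund had 864 counts there and 2053 to 3124 elsewhere. Added together the locus had 1204 counts (76.3 CPM) in RA-treated 2, still the lowest of the 6. Reads of Jund and Gm11175 cannot be told apart without strand, so the Jund value of RA-treated 2 is uncertain.

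**Figure D2:**
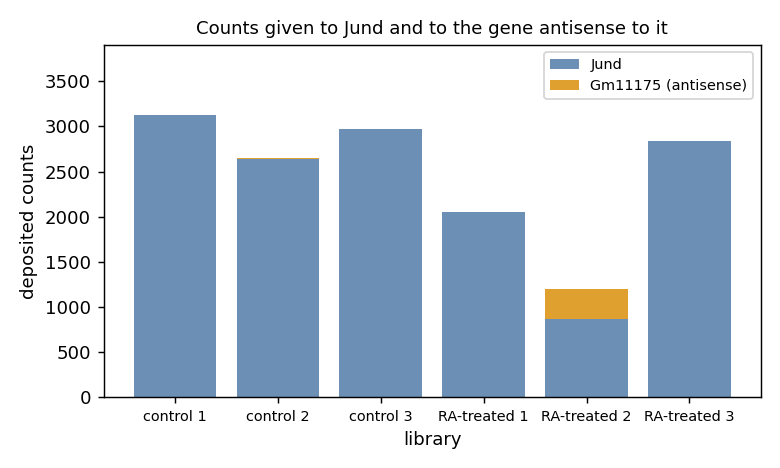
Deposited counts of Jund and, stacked on them, of the antisense gene Gm11175 within it, in each library. Gm11175 takes 28.2% of the summed counts in RA-treated 2 and at most 0.189% in the others.

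Atf3 had 149.5, 103.8 and 127.4 CPM in the controls and 93.0, 82.4 and 122.3 CPM after RA. RA-treated 3 lay among the controls, and the log2 fold change was -0.35 (SE 0.20, 95% interval -0.83 to 0.12). Leaving out control 1 gave -0.22, and leaving out RA-treated 3 gave -0.53.

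Egr1, a zinc finger factor that MAP kinases induce through serum response factor, had 5.74, 5.53 and 5.23 CPM in the controls and 5.11, 3.93 and 6.48 CPM after RA, with a log2 fold change of -0.09 (SE 0.23) that was 0.075 without RA-treated 2. Egr2, a relative with roles in nerve and myeloid cells, had 1.75, 1.22 and 1.65 CPM in the controls and 0.778, 1.08 and 1.23 CPM after RA. The groups of Egr2 overlapped only between RA-treated 3 and control 2, on 18 and 23 counts, and the log2 fold change was -0.58 (SE 0.31, edgeR adjusted p = 0.795).

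**Figure D3:**
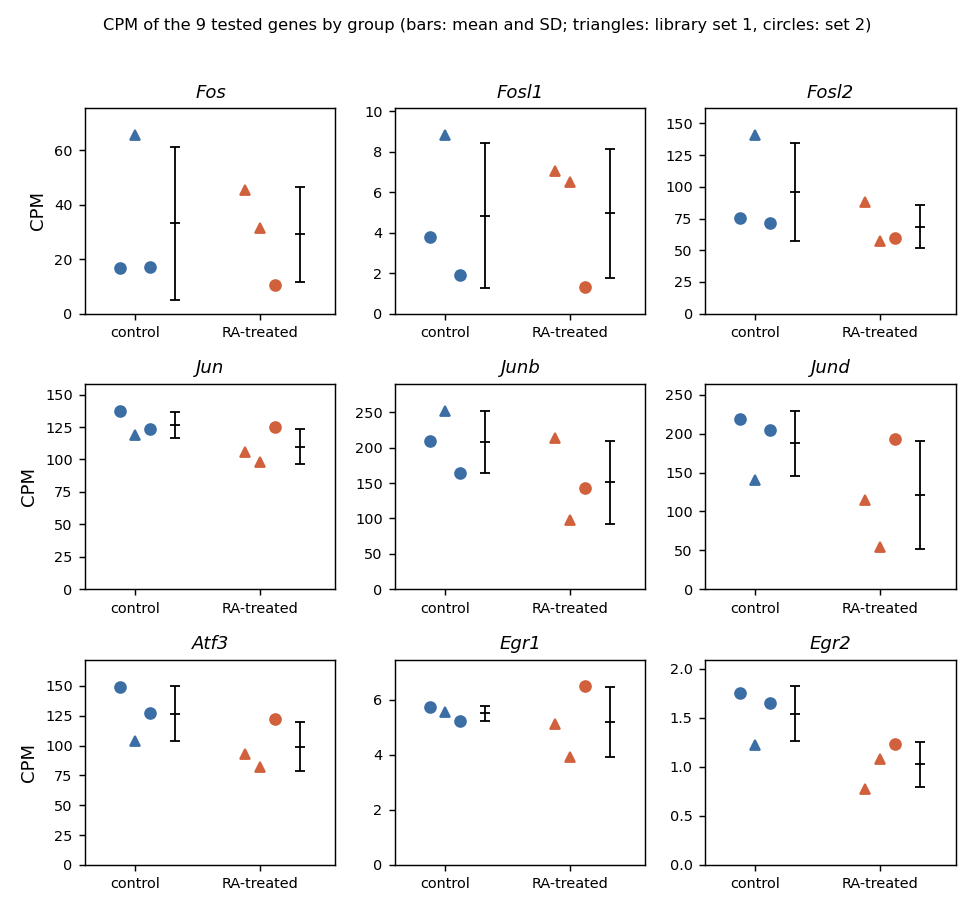
CPM of the 9 tested genes in each library, control in blue and RA-treated in orange, with the mean and SD of 3 libraries beside them. No panel separates the treatments, while 6 of the 9 separate the triangles of set 1 from the circles of set 2, with set 1 higher for Fos and Fosl1 and lower for Jun, Jund, Atf3 and Egr2.

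The differences between the library sets were larger than those between the treatments for several members. Set 1 lay above set 2 by 3.12-fold for Fos and 3.35-fold for Fosl1, and their sets did not overlap. It lay below set 2, again without overlap, for Jund (set 1 minus set 2 of -1.10 on the log2 scale), Egr2 (-0.54), Atf3 (-0.52) and Jun (-0.26). In Egr1 (-0.26), Fosl2 (0.38) and Junb (0.03) the sets overlapped. Such sets without overlap were found in 6 of the 9 members and in 47.7% of all tested genes. The range over the libraries put Fos at percentile 96.4, Fosl1 at 96.5 and Jund at 92.1 of all tested genes. The genes with the pattern most like that of Fos over the 6 libraries, by root mean square difference of centred log2 CPM, were Adam8 (0.136), Syt13 (0.139), Sox11 (0.146), Timp1 (0.160) and Ly75 (0.167). Nearest to Egr1 were Hic2 (0.0237), Mex3b (0.0563), Rpusd4 (0.0599), Ovca2 (0.0666) and Zfp775 (0.0695). Summed mesenchymal markers were also highest in control 2 (4542 CPM) and RA-treated 1 (3536 CPM) and lowest in RA-treated 3 (1735 CPM), as Fos was, but RA-treated 2 (2299 CPM) lay below controls 1 (2360 CPM) and 3 (2611 CPM), where the Fos level did not. Taken gene by gene, 11 of the 12 tested mesenchymal markers were higher in set 1, and 11 of the 15 macrophage markers were higher in set 2. The part of either cell type in the values of Fos and the other members was not tested.

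Compared within each set of libraries, RA-treated values were below control values in both sets for 8 of the 9 genes, which held for 35% of all tested genes. Set 1 holds 1 control and set 2 holds 1 RA-treated library, so the within-set values rest on single libraries and were not tested. For Fos the log2 differences were -0.79 in set 1 and -0.70 in set 2. They were -0.98 and -0.30 for Fosl2, -0.81 and -0.38 for Junb, and -0.83 and -0.13 for Jund. Only Egr1 differed in sign, with -0.30 in set 1 and 0.24 in set 2.

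When edgeR was given the library set as a covariate, Fos had a log2 fold change of -0.74 (SE 0.16, 95% interval -1.11 to -0.37, unadjusted p = 0.00182), which missed the threshold after adjustment (adjusted p = 0.0739). Fosl2 had -0.63 (SE 0.19, unadjusted p = 0.0125, adjusted p = 0.206). None of the 9 was called by this model, where 1.54% of all tested genes were, and 15.1% had an unadjusted p under 0.05. DESeq2 with the same covariate was tried after the other results were seen. It called 1 member, Fos (log2 fold change -0.74, DESeq2 adjusted p = 0.00442), and 2.37% of all genes. The library sets were drawn from these same counts, with Fos and Fosl1 among the genes used. Here and below, models with this covariate may thus leave too little spread, with intervals too narrow and p-values too small.

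The difference between the groups also moved with base composition. GC content here is the share of G and C in the annotated transcripts of a gene. Over all tested genes, the median log2 fold change fell with GC content from 0.21 in decile 1 to -0.30 in decile 10, and 16.1% and 87.3% of genes in those deciles were lower after RA. Controls differed among themselves too: control 3 minus control 1 went from 0.13 to -0.10, and RA-treated 2 minus RA-treated 1 from 0.17 to -0.34. All 9 tested members were richer in GC than the median gene (49.6%), from Atf3 at 51.2% to Junb at 62.6% and Jund at 67.1%.

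**Figure D4:**
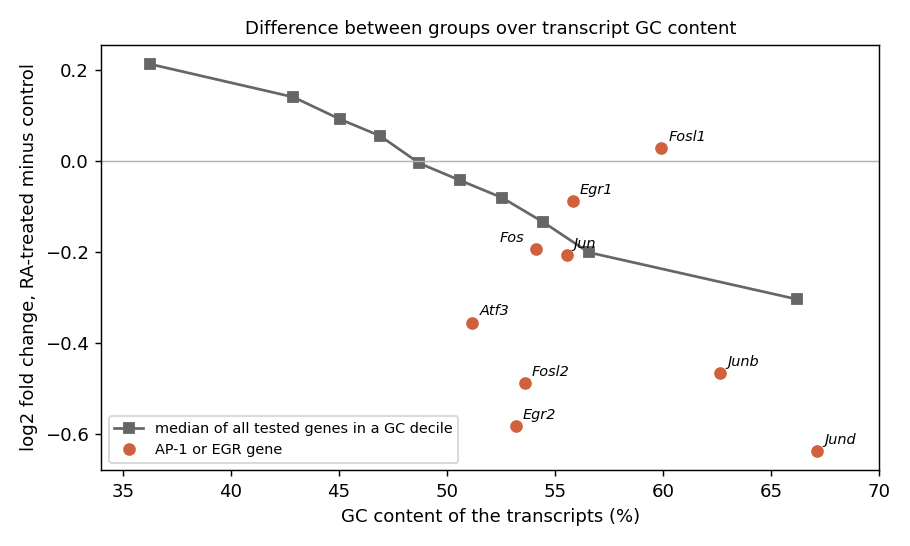
Log2 fold change (RA-treated minus control) of the 9 members against the GC content of their transcripts, with the median of all tested genes in each decile of GC content drawn at the middle of its range. All 9 members lie where the median of all genes is below 0, and 7 of the 9 lie below the median of their own decile.

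When each library's trend over GC content was removed, a correction chosen after the other results were seen, the median over the 9 members went from -0.35 to -0.074. Jund went from -0.64 to -0.16 and Junb from -0.47 to -0.07, while Egr2 (-0.49), Fosl2 (-0.39) and Atf3 (-0.31) moved less. Fos went from -0.19 to -0.06, and Fosl1 from 0.03 to 0.41. None was called, where 0.0723% of all genes were. Within the sets, 5 of 9 members rather than 8 were then lower in both, where 29.1% of all genes were: Fos, Fosl2, Junb, Atf3 and Egr2.

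With both the GC correction and the library set in the model, Fos kept a log2 fold change of -0.63 (SE 0.13, 95% interval -0.93 to -0.33, edgeR unadjusted p = 0.00140, adjusted p = 0.0582) and Fosl2 one of -0.54 (unadjusted p = 0.0127, adjusted p = 0.209). Jun and Jund stood at 0.003 (95% interval -0.15 to 0.16) and 0.02 (95% interval -0.17 to 0.22). None of the 9 passed, where 1.83% of all genes did. The limit of a library set drawn from these same counts holds for this model too.

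**Figure D5:**
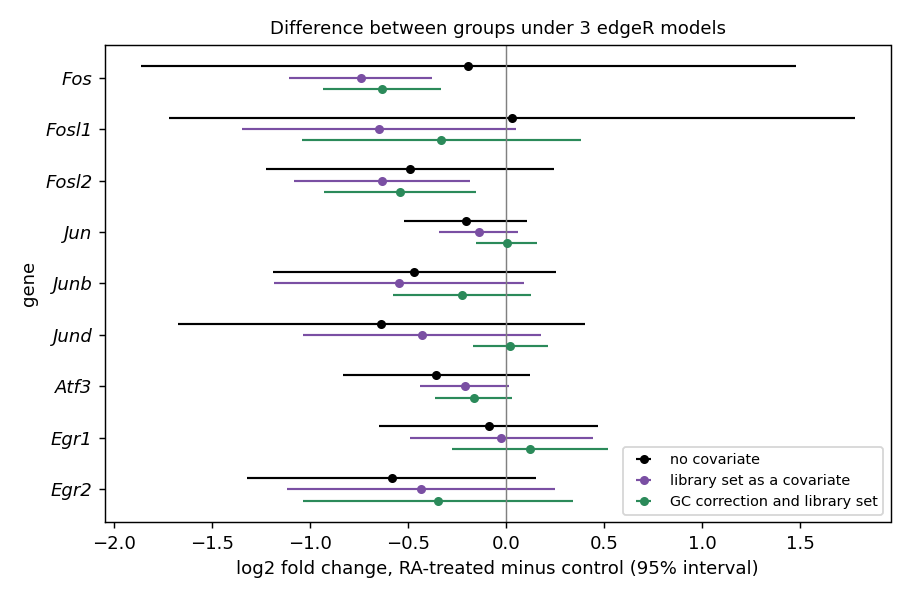
Log2 fold change with its 95% interval for each tested gene in 3 edgeR models: no covariate (black), library set as a covariate (purple), and library set with the GC correction (green). The intervals of Fos and Fosl2 lie below 0 in both models with the library set, and Jund moves from -0.64 without a covariate to 0.02. The library sets were drawn from these same counts, so those intervals may be too narrow.

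Among 14 bZIP genes whose proteins can pair or compete with AP-1, none was called and the median log2 fold change was -0.11. The small Maf gene Maff had the smallest p: it stood at 11.8, 13.3 and 9.35 CPM in the controls and 7.39, 3.68 and 6.41 CPM after RA, with no overlap (log2 fold change -0.98, edgeR unadjusted p = 0.0139, adjusted p = 0.753).

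The 33 other immediate early genes, among them the MAP kinase phosphatases, KLF and NR4A factors and EGR partners, are induced by the same signals as Fos and Egr1. None of the 28 tested was called. Their median log2 fold change was -0.31, 22 of 28 had lower means after RA, and 23 of 28 were lower in both library sets (35% of all genes). With the GC correction 22 of 28 were lower in both sets (29.1% of all genes), with a median of -0.14 without the set covariate and -0.23 with it. These counts carry no test, since the list was chosen with earlier results known.

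In 4 of these genes the unadjusted p was under 0.05, as in 5.25% of all tested genes. The groups of these 4 did not overlap and were lower after RA, as in 6.87% of all tested genes. The share of all genes meeting both conditions was not counted. Nr4a1, an orphan nuclear receptor, had 3.57, 4.41 and 2.54 CPM in the controls and 2.39, 1.52 and 1.09 CPM after RA (log2 fold change -1.07, edgeR adjusted p = 0.795). Klf4 had 10.8, 14.8 and 11.4 CPM and then 8.45, 8.43 and 8.12 CPM (log2 fold change -0.57). The phosphatase genes Dusp2 (log2 fold change -1.07) and Dusp5 (-0.48) were the other 2. With the GC correction the log2 fold changes were -0.88 for Nr4a1, -0.33 for Klf4, -0.88 for Dusp2 and -0.28 for Dusp5. The edgeR unadjusted p-values were then 0.0495, 0.153, 0.0555 and 0.165 in that order. Dusp1, induced with Fos in many cells, followed the library sets as Fos did, with 32.8, 84.7 and 30.3 CPM in the controls and 64.4, 39.7 and 22.7 CPM after RA (named after its values were seen). With the library set as a covariate 1 gene of the list was called (1.54% of all tested genes), the matricellular gene Ccn1 (log2 fold change -0.73, SE 0.11, edgeR adjusted p = 0.0219), and Ccn1 was again the 1 called with the GC correction added (1.83% of all genes, log2 fold change -0.65, adjusted p = 0.0179).

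Upstream of the members, none of 26 tested MAP kinase and serum response factor pathway genes was called, and their median of -0.085 became 0.03 with the GC correction. The smallest p were those of Elk1, a partner of serum response factor (43.0 ± 2.64 CPM in the controls and 34.6 ± 1.34 CPM after RA, log2 fold change -0.31, edgeR unadjusted p = 0.0275), and Fbxw7, which marks Jun protein for degradation (log2 fold change 0.44, unadjusted p = 0.0439).

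Among 24 tested genes known as AP-1 targets, none was called in the model without covariates. The median log2 fold change was -0.27, and 16 of the 24 had lower means after RA. In 4 genes the unadjusted p was under 0.05, as in 5.25% of all tested genes, and these 4 were higher after RA. Mmp13, a collagenase, had 90.4, 124.7 and 116.6 CPM in the controls and 349.3, 403.1 and 177.1 CPM after RA (log2 fold change 1.49, edgeR unadjusted p = 0.00238, adjusted p = 0.353). The other 3 were Mmp9 (1.40), whose groups overlapped, Spp1 (0.51) and Mmp12 (0.35). With the library set as a covariate, Mmp9 rose by 0.88 (edgeR adjusted p = 0.0167) and Mmp13 by 1.19 (adjusted p = 0.0332) on the log2 scale, and both were also called with the GC correction added. The cytokine gene Il6 was called lower by both models, but control 2 stood far above the rest, with 10, 219 and 9 counts in the controls, and RA-treated 3 lay below the floor, with 43, 43 and 2 counts after RA, so no fold is given. Without covariates its edgeR unadjusted p was 0.349. Of the 24 targets, 21 were higher in set 1 than in set 2, as were 6830 of all 13842 tested genes.

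For comparison, 1 of 8 tested retinoid response genes was called (Cyp26b1), where 0.0433% of all tested genes were. Groups did not overlap in 6 of the 8, all higher after RA, as in 5.71% of all tested genes. Rarb, the RA receptor gene that is itself an RA target, had 4, 13 and 2 counts in the controls and 127, 94 and 66 counts after RA (edgeR adjusted p = 0.156). Control 3 lay below the floor of 3 counts, so no fold is given. Rara, the receptor through which RA can act against AP-1, had 20.9, 15.4 and 17.2 CPM and then 12.6, 11.5 and 13.2 CPM, without overlap (log2 fold change -0.52, edgeR unadjusted p = 0.0191, adjusted p = 0.795). With the GC correction the Rara value was -0.22 (edgeR unadjusted p = 0.210), and with the library set added it was -0.19 (edgeR unadjusted p = 0.228). Crebbp and Ep300, coactivators shared by both kinds of factor, stood at log2 fold changes of 0.03 and -0.05.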

How the data were processed

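Total RNA of BMSC cultures had been sequenced as 6 libraries on 1 platform with a DNA library kit. Whether the libraries of a group came from separate cultures is uncertain: controls 1 and 3 differed by a chi-square of 4.81 per degree of freedom over genes, above sampling noise, and all other pairs within a group by 30.2 to 91.7. The deposited values are raw counts of reads per gene, not normalized, in 1 table per library; per the labels' processing notes the submitters used Bowtie2 2.2.3 and build mm10, and the counting program, its annotation and its use of strand are not given in the sources used here. Groups and replicate numbers were taken from the sample titles and treatment labels.

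Of 25722 gene identifiers, 25706 matched GENCODE M21 (GRCm38), which gave positions, exon lengths and GC content, and 24 names that had been turned into dates were replaced. Counts were analysed in R 4.3.3 with edgeR 4.0.16: filterByExpr, TMM scaling and the quasi-likelihood F test on all 6 libraries without covariates, adjusted by the Benjamini-Hochberg method over 13842 genes and called at 0.05 with 1.5-fold. SE was derived from the log2 fold change and F. CPM used TMM-scaled totals, and log2 CPM a prior count of 2. An exact permutation test of 3 against 3 libraries cannot go below p = 0.1, so none is printed. Floors of 3 counts cover counting error only, and copies made by PCR are not independent molecules. The scripts were tested on simulated data.

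The members and all gene lists were chosen with earlier results of these data known. Named are all members; in each other list the genes called, otherwise those with an unadjusted p under 0.05, otherwise the 2 with the smallest p, and genes of at least 1.5-fold whose groups do not overlap; the 5 genes closest to Fos and to Egr1; and Cyp26b1. DESeq2 was version 1.42.0. The GC correction removed each library's lowess trend of log2 CPM over GC content as an offset, for 13833 tested genes with a GC value. The GC correction, DESeq2 with the library set, and values within library sets were added after seeing the data. The study's other experiments were not analysed here. Some genes of the bZIP and target lists are not reported here.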

Additional observations from a re-analysis of the deposited data

How the results depend on the processing

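All counts in this paragraph, also those at an unadjusted p, keep the 1.5-fold threshold. Without covariates, 6 genes of 13842 were called. The number was 4 with the replicate block, 20 with no filter, 122 with DESeq2, 134 with the likelihood ratio test, 491 at an unadjusted p, 213 with the library set, 362 with DESeq2 and the library set, 10 with the GC correction, 3 with the GC correction and the replicate block, 253 with the GC correction and the library set, and 0 to 6 when single libraries were left out (0 without control 1). Members called stayed at 0 except for 1 with DESeq2 and the library set. Of the bZIP partners, 1 was called at an unadjusted p and 1 with the GC correction and the library set. Of the other immediate early genes, 2 were called at an unadjusted p and 1 in each model with the library set. AP-1 targets called were 4 with the library set, 4 with the GC correction and the library set, 8 with DESeq2 and the library set, 2 at an unadjusted p, and 1 each with DESeq2 and the likelihood ratio test.

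The median over the members was -0.074 with the GC correction, -0.086 with the replicate block added to it, and -0.22 with the library set added to it. Without the GC correction it was -0.51 to -0.24 when single libraries were left out. Fos ranged from -0.65 to 0.79 and was positive without control 2 (0.79) and without RA-treated 3 (0.20). Fosl1 ranged from -0.35 to 0.82, and was -0.0032 with the replicate block, -0.65 with the library set, -0.69 with DESeq2 and the library set, and -0.33 with the GC correction and the library set. Jun (0.0031) and Jund (0.023) turned positive with the GC correction and the library set. Egr1 turned positive with the GC correction (0.072), with the library set (0.12) or the replicate block (0.058) added to it, and without RA-treated 2 (range -0.28 to 0.075). The causes were not tested.

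Same-numbered libraries deviated together with correlations of -0.51, 0.34 and 0.57, so the numbers were not taken to pair them. With the replicate block, 0 members were called and Jund had the smallest p (log2 fold change -0.79; edgeR unadjusted p = 0.0234; adjusted p = 0.714). Scaling by library size alone or upper quartile left 8 of 9 members lower and 0 called. Fosb, with 1 to 7 counts per library, failed the edgeR filter, and DESeq2 gave it an unadjusted p of 0.232.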
